A study of Arabidopsis thaliana with 16 samples.

Results

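Transposase hypersensitive sites (THSs) are short stretches of open chromatin into which the Tn5 transposase inserts readily. The 2914 THSs described here share at least 1 bp with a listed chromatin immunoprecipitation (ChIP-seq) peak of the transcription factor MUTE and none with a listed peak of SPEECHLESS (SPCH). They were chosen by coordinates alone, from 1505 MUTE peaks and 1558 SPCH peaks, and make up 4.46% of the 65351 THSs of the series. Of the others, 2051 THSs overlapped peaks of both factors, 1349 overlapped SPCH peaks only and 59037 overlapped neither. The accessibility values played no part in the choice.

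SPCH and MUTE are related basic helix-loop-helix (bHLH) proteins that act in sequence in the epidermis of leaves and cotyledons. SPCH starts the asymmetric divisions that make meristemoid mother cells and meristemoids, MUTE ends those divisions and turns the meristemoid into a guard mother cell, and FAMA, a later relative, drives the differentiation of the guard cells. These proteins bind E-boxes, short elements written CANNTG of which CACGTG is a common form, while BASIC PENTACYSTEINE (BPC) proteins bind GA repeats.

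Nuclei were taken by INTACT, a method in which a biotinylated tag on the nuclear envelope lets the nuclei of chosen cells be pulled down, from whole 3-day-old seedlings of Col-0 plants grown in continuous light. All lines carried the biotin ligase BirA under the ACT2 promoter, and each carried the tag under a promoter of its own. Proto (AtML1 promoter, protodermal cells), MMC (SPCH promoter, meristemoid mother cells with early meristemoids), GMC (FAMA promoter, guard mother cells becoming guard cells) and GC (GC1 promoter, guard cells) had 3 libraries each, and M (MUTE promoter, late meristemoids) had 4. The lines are selected transformants, a state is known only by its promoter, and the tag promoters are extra copies of native sequence, so reads at those promoters come from the transgene as well. The values are scaled cutcounts, which are the transposase insertions on a THS divided by a size factor per library. The estimated insertions on THSs ran from 3412227 in the smallest library (M replicate 3) to 13596535 in the largest (M replicate 4).

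The peak lists were made from peaks with motif matches. The word CACGTG occurred in 100% of the 1505 MUTE peaks and in 67.7% of the SPCH peaks, and GAGAGA occurred in 100% of both. A THS outside the listed SPCH peaks is not thereby a THS that SPCH does not bind. Of the 2914 THSs, 1791 lay in 537 MUTE peaks that share no base with a SPCH peak. The other 1123 lay in 433 MUTE peaks that overlap a SPCH peak elsewhere along their length.

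A few of the sequences show the words in place. They are from the TAIR10.1 assembly, read on the plus strand from 5′ to 3′, and capitals mark CACGTG and runs of at least 4 GA or TC units. The first is the THS at the FAMA promoter, at chr3:8719185-8719304, with 1 CACGTG.
THS_33854: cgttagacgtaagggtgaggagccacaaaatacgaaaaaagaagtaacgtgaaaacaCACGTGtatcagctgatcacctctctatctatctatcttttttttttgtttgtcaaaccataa
The next, at chr5:26833391-26833420, lies upstream of CYCD3;2, a D-type cyclin gene, in a non-coding exon of the F-box gene SKIP2, and was higher in MMC and M.
THS_65198: caaataagggaaCACGTGtcataatcgtag
The window at chr4:18525602-18525707 lies in a coding exon of CYP79B2 and holds 2 copies of CACGTG. It is shown because this THS was lower in MMC and M.
THS_50074: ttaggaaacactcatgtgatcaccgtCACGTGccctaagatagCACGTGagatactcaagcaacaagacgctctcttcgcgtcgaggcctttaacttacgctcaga
The intergenic window at chr4:527021-527140 shows 1 of the 5 copies of CACGTG in one of the most accessible of these THSs.
THS_40802: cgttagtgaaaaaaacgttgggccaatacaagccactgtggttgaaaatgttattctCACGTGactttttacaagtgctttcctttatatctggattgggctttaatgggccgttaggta

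GA repeats are shown by the THSs that span the starts of SPCH, BAK1 and BRI1, none of which holds CACGTG. The repeat at SPCH, chr5:21588953-21588982, lies in the non-coding part of the first exon.
THS_61260: atatatcctTCTCTCTCTCTCttcctcgtt
The repeats at BAK1, chr4:16090698-16090727, and at BRI1, chr4:18324666-18324695, lie in like positions of the genes of a brassinosteroid co-receptor and receptor.
THS_48168: caaagagagatGAGAGAGAggagagaaacc
THS_49910: ttgactctctTCTCTCTCTCctctctttct
A THS of 150 bp with neither word, at chr5:26815222-26815371 in a coding exon, is shown whole because it had the largest decrease among the THSs named by rule apart from FAMA. Its capitals mark the single CANNTG word.
THS_65184: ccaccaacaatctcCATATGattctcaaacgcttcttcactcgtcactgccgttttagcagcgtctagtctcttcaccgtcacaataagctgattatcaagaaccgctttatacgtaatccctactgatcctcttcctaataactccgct

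Of the 2914 THSs, 602 held CACGTG, which is 20.7%. The share was 9.80% over all THSs weighted to the same lengths, 44.3% in THSs of both factors' peaks, 10.8% in those of SPCH peaks only and 7.06% in those of neither. GAGAGAGA, or TCTCTCTC on the other strand, was held by 342 THSs (11.7%), against 8.23% over all THSs of the same lengths, 30.5% for both factors and 25.9% for SPCH only. As every listed MUTE peak holds CACGTG and the shorter GAGAGA, and 85.6% of them hold GAGAGAGA, a share above that of all THSs is in part fixed by the list. The MUTE peaks were also longer, with a median of 1738 bp against 949 bp for the SPCH peaks. Of the THSs centred within 250 bp of the centre of their MUTE peak, 30.4% held CACGTG and 16.2% the GA repeat. Of those over 2000 bp away, 13.6% and 4.27% did. The part of peak length in the shares by class was not tested. Both words stood together in 56 of the 2914 THSs (1.92%), against 18.7% of the THSs in peaks of both factors. The GATA words AGATAA and TGATAA, which the lists did not select, were in 39.3%, against 41.2% over all THSs of the same lengths.

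What the peak lists leave free is where in a peak the words lie. THSs covered 42.0% of the length of the MUTE peaks, leaving out any peak over 100000 bp, none of which held one of the 2914. Of 2430 copies of CACGTG in these peaks 77.9% lay in a THS, and of 2199 GA repeats 54.1%. In MUTE peaks that share no base with a SPCH peak, the THSs covered 37.3% of the length and held 65.9% of the CACGTG copies and 41.8% of the GA repeats. In 413 peaks, some of the THSs held CACGTG and some did not, and in 306 of these the ones with the word were the more accessible on average. The median difference within a peak was 0.82 on the log2 scale of the level. The THSs with the word were also longer, by a median of 0.31 on the log2 scale, and the part of length in the difference was not tested. For GA repeats, 245 peaks allowed the comparison, and the THSs with the repeat were the more accessible in 158 of them, by a median of 0.50.

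The THSs in MUTE peaks only had a median length of 245 bp, from 150 to 2218, and all 2914 had a cutcount in some library. Their mean scaled cutcount over the 5 states had a median of 65.9, with the central 80% between 27.9 and 230.0, while all THSs had a median of 53.9. Of the 2914, 20.7% lay within 400 bp upstream of a gene start, 21.6% in non-coding exons, 16.3% in coding exons, 8.17% in introns and other gene body and 33.3% between genes. All THSs were spread over the same places at 25.5%, 18.9%, 15.5%, 6.16% and 33.9%. The nearest gene start was a median of 672 bp away, and 1432 different genes were nearest to one or more of these THSs.

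Accessibility over the whole set differed little between states. The medians of the libraries were 61.1, 62.5 and 62.8 in Proto, 64.0, 68.3 and 73.1 in MMC, and 64.3, 66.6, 75.7 and 77.6 in M. The GMC libraries had medians of 64.0, 64.0 and 64.2 and the GC libraries 62.9, 64.3 and 66.5. M was highest on average, at 71.0 ± 6.58 (SD, n = 4), and its lowest library lay inside the range of GC. Set against the median of all THSs in the same library on the log2 scale, the set stood 0.23 to 0.59 above it in M and 0.26 to 0.55 in MMC, but 0.17 to 0.19 in GMC, 0.19 to 0.22 in GC and 0.20 to 0.26 in Proto. THSs in peaks of both factors stood further above, by 0.83 to 1.67 in M and 0.68 to 0.84 in GMC. These medians describe the set and were not tested.

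**Figure D1:**
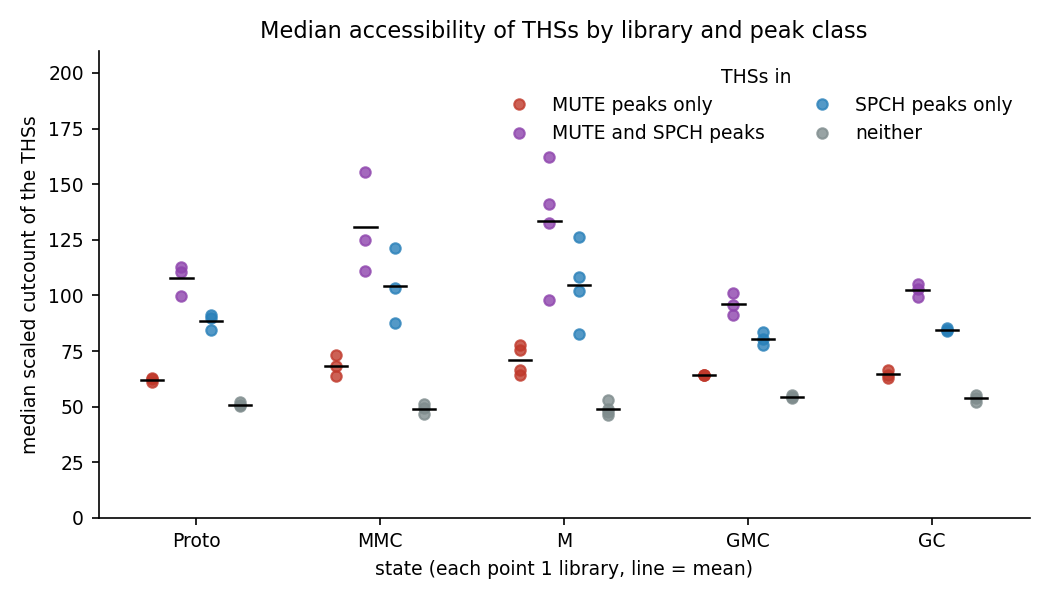
Median scaled cutcount of the THSs of each peak class in each of the 16 libraries, grouped by state. Points are libraries and black lines are means over libraries. THSs in MUTE peaks only lay between 61.1 and 77.6 in all libraries, above those in neither and below those in SPCH peaks.

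Setting MMC and M against GMC and GC asks which sites are more open before than after the commitment to a guard mother cell. Values were tested with limma on log2(scaled cutcount + 1), and p-values were adjusted over all 65351 THSs. At an adjusted p under 0.05, MMC and M exceeded GMC and GC in 660 of the 2914 THSs (22.6%) and fell below them in 231 (7.93%), where 16.6% of all THSs were higher and 16.7% were lower. The median log2 difference was 0.15, against -0.02 over all THSs. Equal totals in place of the deposited scaling shifted the median of all THSs by -0.11 and gave 500 higher and 319 lower in the set, against 7706 and 13336 of all THSs. In nuclei pooled from many seedlings, a change in accessibility and a change in the mix of nuclei cannot be told apart.

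The set stood between the other classes. THSs in peaks of both factors were higher in 41.9% and lower in 2.44%, those in SPCH peaks only were higher in 36.5% and lower in 3.63%, and those in neither were higher in 14.9% and lower in 18.0%. The median differences were 0.41, 0.36 and -0.05, in that order. The classes also differed in level, with median levels of 65.9 in the set, 114 for both factors, 91.8 for SPCH only and 51.8 for neither. Among the most accessible 20% of all THSs, 52.4%, 64.1%, 62.6% and 46.7% were higher, in that order. Among the least accessible 20% these shares were 1.95%, 0.813%, 0.901% and 0.604%. The part of level in the differences between classes was not tested. Many THSs share a peak, so they are not independent of each other.

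**Figure D2:**
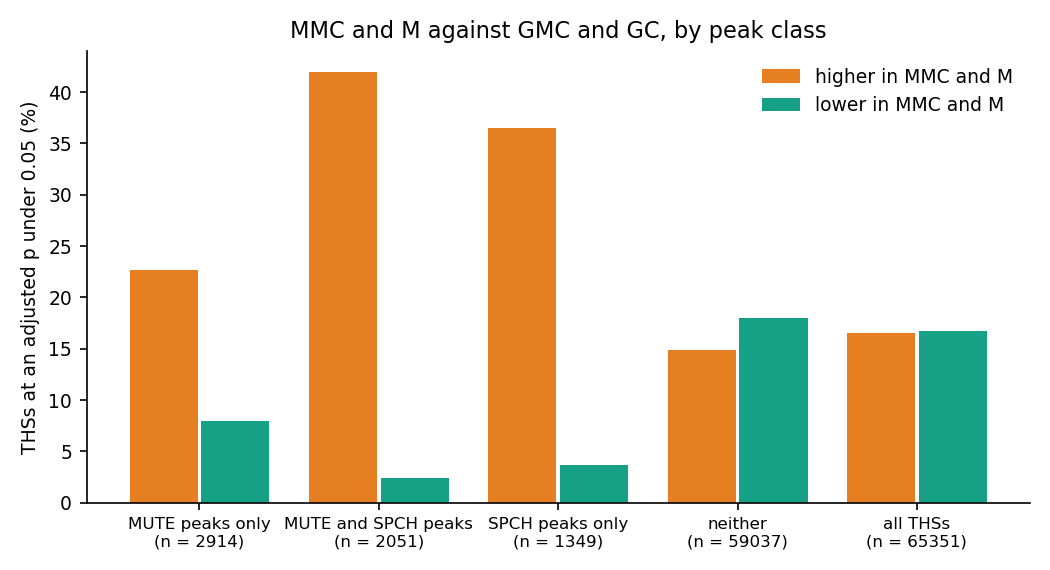
Percentage of THSs in each peak class that passed the limma test at an adjusted p of 0.05 as higher or lower in the MMC and M libraries. In MUTE peaks only 22.6% were higher and 7.93% lower, between the classes of SPCH peaks and the THSs in neither.

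Several measures moved with these calls. The 10% of all THSs with the most cutcounts held 43.9% to 47.9% of the cutcounts in the MMC and M libraries and 41.7% to 46.3% in the GMC and GC libraries. With this share as a covariate, 106 of the 2914 THSs were higher and 66 lower, against 1805 and 3190 of all THSs. Without MMC replicate 3, 316 were higher and 101 lower (4748 and 5822 of all THSs), and without GMC replicate 1, 345 and 106 (5493 and 5993). Leaving out GC replicate 1 gave 431 and 115 (6452 and 6578), and GC replicate 2 gave 407 and 140 (6283 and 7284). Without M replicate 1, 977 were higher and 355 lower (16309 and 15304). The part of the share in the result was not tested. More THSs of the set were higher than lower under each of these settings, but the count called moved from 172 to 1332 between them.

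The level and the place of a THS moved with the calls as well. Of the 782 among the most accessible 20% of all THSs 52.4% were higher and 1.41% lower, against 46.7% and 3.33% for THSs of that level in no peak. Of the 411 among the least accessible 20% only 1.95% were higher and 11.2% lower, against 0.604% and 19.9%. Weighting all THSs to the level and place of the set gave 19.6% higher and 16.05% lower. Matching thus brought the share of all THSs that were higher closer to the 22.6% of the set, and left the share that were lower well above its 7.93%.

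By place, the calls ran from mostly higher near gene starts to mostly lower in coding sequence. Upstream of a start, 197 of 603 THSs were higher (32.7%) and 22 lower (3.65%). In non-coding exons 168 of 628 were higher and 15 lower, and between genes 242 of 969 were higher and 22 lower (2.27%). In coding exons 19 of 476 were higher (3.99%) and 150 lower (31.5%). The same places over all THSs had 28.4% and 5.86% upstream of a start and 19.9% and 11.1% in non-coding exons. They had 13.9% and 10.1% between genes and 2.81% and 51.5% in coding exons. Coding exons also held the shorter and less accessible of these THSs, with a median length of 170 bp and a median level of 51.7.

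**Figure D3:**
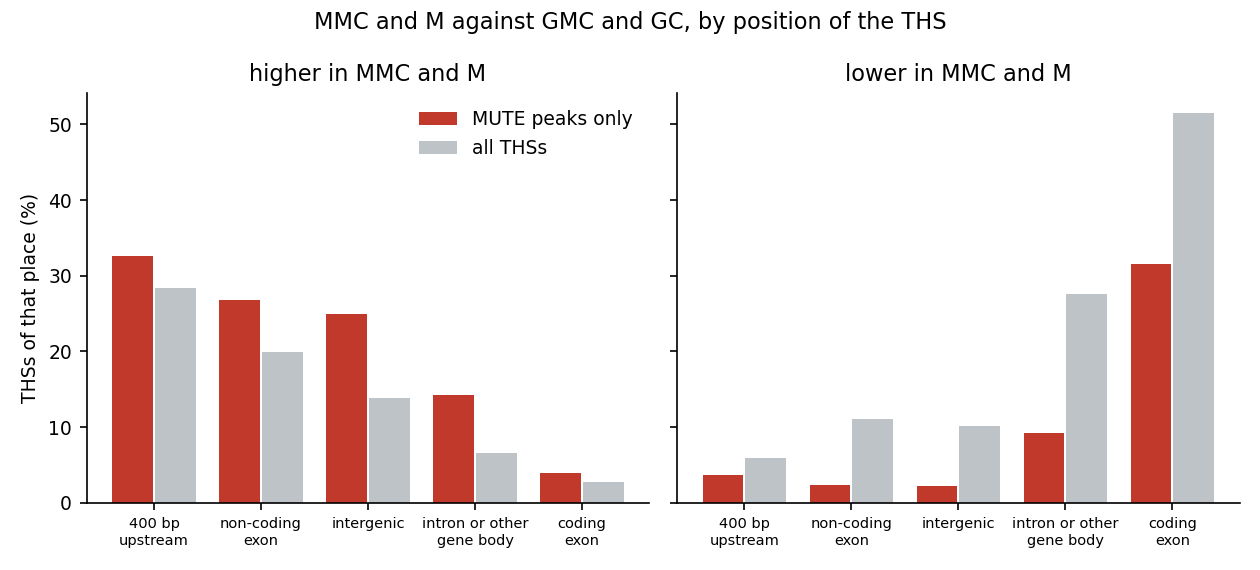
Percentage of THSs that were higher (left) or lower (right) in MMC and M than in GMC and GC, by the position of their midpoint. Red bars are the 2914 THSs in MUTE peaks only, and grey bars are all 65351 THSs. Lower THSs were most frequent in coding exons, at 31.5% of the THSs in MUTE peaks only and 51.5% of all THSs.

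THSs of the set with CACGTG were higher in 189 of 602 (31.4%) and lower in 37 (6.15%). Those without it were higher in 20.4% and lower in 8.39%. Over all THSs, 32.3% with the word were higher and 7.38% lower, against 15.03% and 17.6% without it. The shares of the set with the word were thus near those of all THSs with the word. In the set, the THSs with the word were also the more accessible, with a median level of 112.8 against 59.3. Within classes of like level, 52.3% with the word and 52.5% without it were higher among the most accessible 20% of all THSs, 20.5% and 26.0% in the next 20%, 6.67% and 10.8% in the 20% after that, and 6.12% and 3.57% in the one below. The gap was thus not seen in the 3 upper classes. THSs of the set with a GA repeat were higher in 108 of 342 (31.6%), and those without it in 21.5%. Over all THSs these shares were 33.1% and 15.2%. In the set, by the 3 upper classes of level, the shares with and without the repeat were 51.1% and 52.7%, 28.1% and 24.2%, and 16.9% and 9.37%. In the next class down they were 3.03% and 3.90%, and in the lowest 0 of 16 THSs and 8 of 395. Of the 56 THSs of the set with both words 14 were higher and 6 lower (10.7%). Among all THSs with both words, 299 of 631 were higher (47.4%) and 17 lower (2.69%). In peaks of both factors, 54.6% of the THSs with CACGTG and 59.1% of those with both words were higher.

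Being in a peak with no SPCH overlap went with a larger share of higher THSs, where 16.6% of all THSs were higher and 16.7% lower. Of the 1791 THSs in such MUTE peaks 24.9% were higher and 6.76% lower, with a median level of 72.6. Of the 1123 in MUTE peaks that overlap a SPCH peak elsewhere 19.1% were higher and 9.80% lower, with a median level of 59.6. Of the 1123, 119 were the most accessible THS of their peak. The rule leaves out every THS of these peaks that shares a base with a SPCH peak. The part of this choice and of level in the difference was not tested. By distance, the 649 THSs under 1000 bp from a SPCH peak were higher in 18.5% and lower in 11.9%, with a median level of 55.7. The other 2265 were higher in 23.8% and lower in 6.80%, with a median level of 71.2. At the edge of the rule, the 142 THSs with less than 50% of their length inside the MUTE peak were higher in 21 and lower in 20, with a median level of 53.8. The 954 THSs in no peak that lay within 500 bp of a MUTE peak were higher in 7.65% and lower in 17.7%, with a median level of 42.3.

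Clear separation of the libraries was rare. All MMC and M libraries lay above all GMC and GC libraries in 39 of the 2914 THSs (1.34%, against 0.978% of all THSs), and all lay below in 23 (0.789%, against 2.04%). The 6 with the largest difference in each direction that also passed the test are described next.

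The largest increase was at SPCH itself. THS_61260 (chr5:21588947-21590658) spans the start of SPCH, with its midpoint 548 bp upstream. Its scaled cutcounts were 3968, 4376 and 5588 in MMC, and 339, 405, 515 and 582 in M. The other states were low, with 245, 269 and 271 in Proto, 272, 310.3 and 334 for GMC, and 259.5, 265 and 331 for GC. The MMC line carries a further copy of this promoter in front of its tag, and its part in the MMC value cannot be told apart from that of the native gene. The M libraries, which carry no such copy, all lay above those of GMC and GC. MMC and M together were higher by 2.29 ± 0.18 (log2, SE, adjusted p = 1.92e-08), while M was higher than GMC by 0.56 ± 0.25 (adjusted p = 0.108).

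Its neighbour THS_61261 (chr5:21590709-21591786), centred 1993 bp upstream, had 2113, 2679 and 3054 in MMC and between 173 and 264 in all other libraries. These 2 THSs were among 7 in a single MUTE peak at SPCH. The other 5 were chosen for description after their values were seen. THS_61259, THS_61263, THS_61264 and THS_61265 were higher in MMC and M by 0.60, 0.55, 0.55 and 0.60 (adjusted p = 0.0292, 0.039, 0.0205 and 0.0349), and THS_61262 differed by 0.14 (adjusted p = 0.486). In none of these did MMC stand apart as it did at the promoter: THS_61265, the most accessible of them, averaged 342 in MMC, 364 for M and 329 for Proto, against 204 for GMC and 239 for GC.

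The other 5 increases were nearer to a doubling. THS_12203 (chr1:22932078-22932531) lies 455 bp upstream of ATG8C, which encodes a ubiquitin-like protein of autophagy. The MMC libraries had 215, 346 and 422 and the M libraries 181, 267, 374 and 409.8, all above the 150.8, 164 and 173 of GMC and the 136, 158 and 169.6 of GC. The difference was 0.94 ± 0.19 (SE, adjusted p = 0.00485), and Proto, at 152, 178 and 187, lay with the later states.

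THS_05989 (chr1:8936982-8937171) lies 1533 bp upstream of BBX15, a B-box zinc finger gene. It had 85.6, 111 and 132 in MMC and 64.3, 108, 121 and 149 for M, while GMC had 51.7, 57.0 and 61.6 and GC had 52.2, 56.1 and 59.96. MMC and M were higher by 0.91 ± 0.18 (SE, adjusted p = 0.0045). M replicate 1 was the lowest M library here, as in all 6 of the THSs with the largest increases.

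THS_06611 (chr1:9885382-9885899) lies in a non-coding exon nearest to AT1G28280. The MMC libraries had 303, 440.1 and 462, the M libraries 243, 352, 382 and 553, the GMC libraries 158, 194 and 195, and the GC libraries 205, 229 and 243, a difference of 0.91 ± 0.18 (SE, adjusted p = 0.00468). The highest GC library and the lowest M library were thus nearly equal. THS_38631 (chr3:20684427-20684831), 566 bp upstream of the R2R3-MYB gene MYB109, averaged 249 ± 70.0 in MMC and 242 ± 77.7 for M, against 130.4 ± 19.5 for GMC and 129 ± 6.61 for GC. It was higher by 0.87 ± 0.18 (SE, adjusted p = 0.00499). THS_55092 (chr5:7673893-7674143), upstream of the xylan glycosyltransferase gene F8H, averaged 130.0 ± 24.8 in MMC and 159.6 ± 53.8 for M, against 77.7 ± 4.67 for GMC and 77.9 ± 15.4 for GC (SD, n = 3, or 4 for M). It was higher by 0.85 ± 0.18 (SE, adjusted p = 0.0051).

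The 6 largest decreases were at weaker and shorter sites, 5 of them 150 bp long and 4 in coding exons. THS_65184 (chr5:26815222-26815371), in a coding exon of AT5G67200, had 20.2, 20.7 and 33.5 in MMC and 6.13, 10.2, 13.3 and 28.8 in M. GMC had 40.2, 42.8 and 51.7, and GC had 39.9, 51.5 and 58.1. The difference was -1.38 ± 0.26 (SE, adjusted p = 0.00441), and all MMC and M libraries lay below all GMC and GC libraries.

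THS_50074 (chr4:18525602-18525811) lies in a coding exon of CYP79B2, whose enzyme turns tryptophan into indole-3-acetaldoxime, and holds 2 copies of CACGTG. It had 21.8, 38.4 and 43.1 in MMC and 18.2, 26.6, 42.3 and 51.8 for M, while GMC had 62.8, 81.5 and 84.6 and GC had 62.1, 62.8 and 66.7. The log2 difference was -1.07 ± 0.21 (SE, adjusted p = 0.00461), again with no overlap of libraries.

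The other 4 were THS_46567 in the gene body of CIP7, a partner of the light regulator COP1, THS_02250 in a coding exon of AT1G10350, THS_64845 in a coding exon of AT5G66080, and THS_49607 upstream of AT4G38005. Their differences were -1.29 ± 0.29, -1.27 ± 0.32, -1.21 ± 0.25 and -1.17 ± 0.22 (SE). The adjusted p-values were 0.00585, 0.00878, 0.00499 and 0.00445. The means over MMC and over M were between 17.6 and 30.0 for these 4, and those over GMC and over GC were between 39.4 and 60.4. MMC replicate 3 was the lowest MMC library in each of them, between 4.67 and 12.4.

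**Figure D4:**
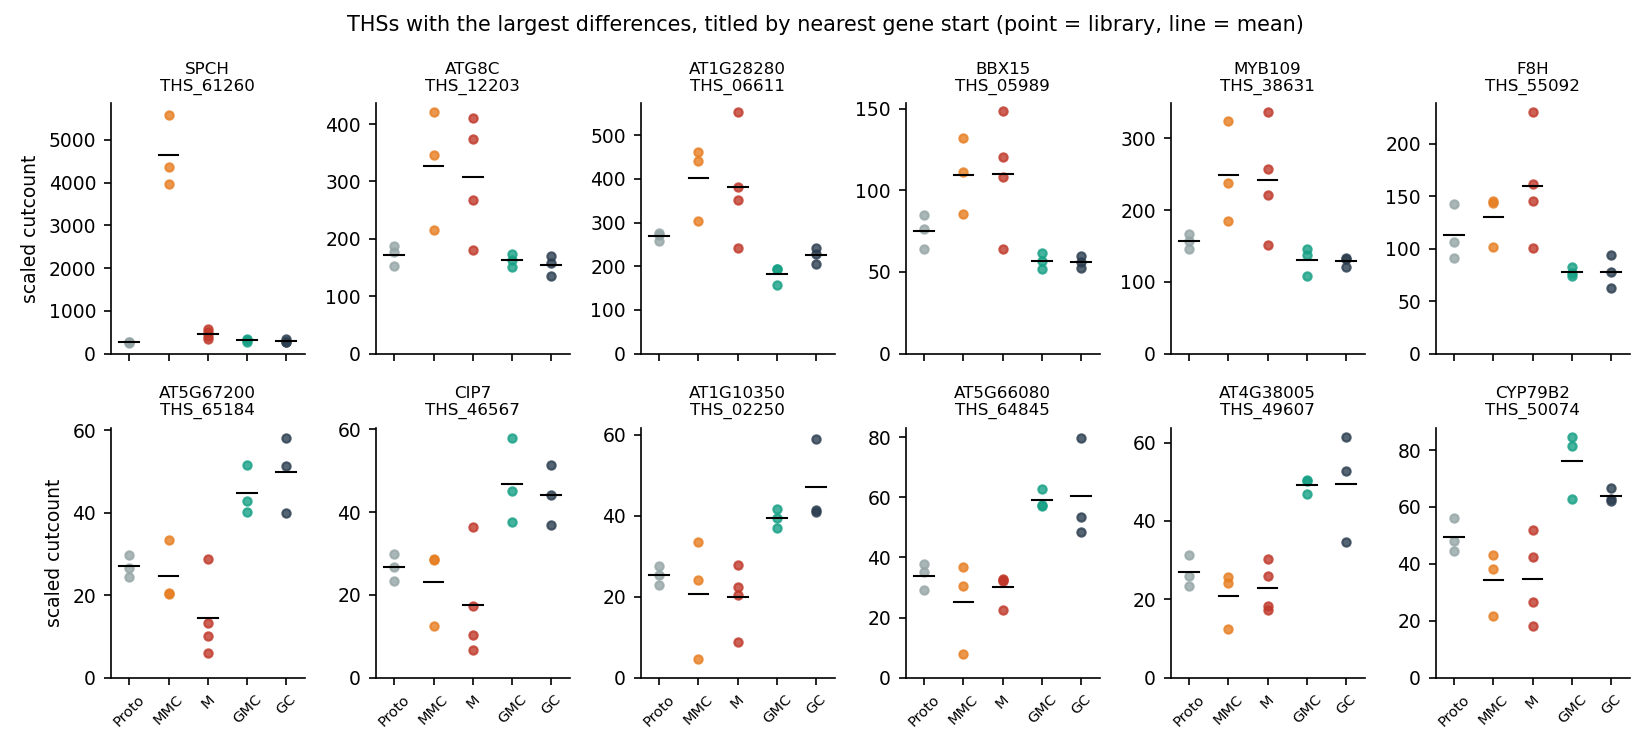
Scaled cutcounts in each library for the 6 THSs with the largest increase (top row) and the 6 with the largest decrease (bottom row) in MMC and M against GMC and GC, among those that passed the test without overlap of libraries. Points are libraries, lines are means, and each panel has its own axis from 0. SPCH stands apart through the MMC libraries, at 3968 to 5588, while the highest library of the other panels was at 553, an M library of the THS near AT1G28280.

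M against GMC is the step at which MUTE acts. Of the 2914 THSs 239 were higher in M and 58 were lower, which is 8.20% and 1.99%, against 5.87% and 4.79% of all THSs. In peaks of both factors 13.7% were higher and 0.488% lower. The median difference of the set was 0.18. These counts rested on single libraries. The count was 1 without M replicate 2, 3 or 4 or without any of the GMC replicates (4 to 7 of all THSs). It was 1 with the covariate (3) and 1 without trend and robust variance (5). Without MMC replicate 3 it was 614 (15634 of all THSs), and without M replicate 1 it was 1070 (25208). Leaving out a Proto or GC library gave 159 to 194 (3744 to 4478).

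The rule named 4 increases and 4 decreases here. THS_33251 (chr3:7911223-7911695) lies 1446 bp upstream of TIME FOR COFFEE (TIC), a gene of the circadian clock. It had 385, 846, 993 and 1184 in M and 199, 322 and 341 in GMC, a difference of 1.49 ± 0.31 (SE, adjusted p = 0.0281). MMC had 509.7, 859 and 984, GC had 410.4, 413 and 442, and Proto had 479.8, 548 and 556, so GMC was the lowest state. THS_21283, in a non-coding exon of AT2G23450, had 198, 395, 429 and 574 in M and 138, 144 and 145 in GMC, a difference of 1.38 ± 0.29 (adjusted p = 0.0281). THS_20174 and THS_19287, near AT2G19180 and AT2G15440, were higher in M by 1.47 each (adjusted p = 0.0291 and 0.0293), with means of 55.6 and 31.5 in M and 18.6 and 11.9 in GMC.

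Among the decreases, THS_33854 (chr3:8717797-8720014) spans the start of FAMA, with its midpoint 695 bp upstream and in a non-coding exon of AT3G04625. It had 3460.3, 3712 and 3764 in GMC and between 213 and 758 in all other libraries. The GMC line carries a further FAMA promoter, whose reads cannot be told apart from those of the native gene. M differed from GMC by -3.13 ± 0.28 (adjusted p = 3.75e-07), and GC differed from GMC by -3.25 (adjusted p = 7.67e-07).

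THS_37579 (chr3:19041404-19041775) lies in a gene body 1268 bp upstream of ROP1, a small GTPase gene of polar growth, and had 38.8, 43.1, 47.8 and 102 in M against 136, 169 and 183 in GMC. The difference was -1.58 ± 0.28 (SE, adjusted p = 0.0281), and M replicate 1 gave the highest of the M values. The other decreases were THS_65184 and THS_46567 of the previous comparison, at -1.75 and -1.60 (adjusted p = 0.0281 and 0.0291). Under 25 alternative settings, FAMA kept its call for M against GMC in all 25, while the other 7 lost theirs in 8 or 9 each, without a change of direction. The same 7 kept the call for MMC and M against GMC and GC in all 25.

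The remaining comparisons called few THSs, all at the 2 tag promoters. M against MMC called 2, which were THS_61260 and THS_61261 at SPCH, with log2 differences of -3.35 and -3.41 for M minus MMC (0.00459% of all THSs were called). MMC against Proto called the same 2, higher in MMC by 4.13 and 3.69 (0.00765% of all THSs). GC against GMC called 1, THS_33854 at FAMA (0.00765% of all THSs), which was not called after cyclic loess (adjusted p = 0.261). The test of 5 state means called these 3 (0.0275% of all THSs). At an unadjusted p under 0.05 there were 692, which is 23.7% of the set against 24.9% of all THSs. Without M replicate 1 it called 778 (17272 of all THSs), without MMC replicate 2 it called 323 (9422) and without MMC replicate 3 it called 102 (3593). MMC against Proto called 7 without MMC replicate 2 (698 of all THSs). No THS of the set was called when M was compared with the mean of the other 4 states (0 by limma, and 0.00153% of all THSs). At an unadjusted p under 0.05 there were 605, or 20.8% against 20.3% of all THSs, and 819 were called without M replicate 1 (16618 of all THSs) and 250 without MMC replicate 3 (7565 of all THSs).

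The 5 THSs with the highest levels included those at SPCH and FAMA. THS_37682 (chr3:19219382-19219770), 448 bp upstream of the chlorophyll synthase gene G4, had the highest mean, with 3028, 7072, 18429 and 26722 in M and 1611, 7578 and 11080.0 for MMC. GMC had 9898 to 11438, GC 8445 to 16739 and Proto 7888 to 10305. Of its words of 31 bases 18.1% occur in the chloroplast genome and 16.7% in the mitochondrial genome of the same assembly, and only 1 other THS of the set shared any such word with an organelle. Its states differed by less than its libraries did (early against late -0.68 ± 0.45, adjusted p = 0.236), and the part of organelle reads in its value was not tested. THS_45126 at the peroxidase gene PRXR1 averaged 1151 in Proto, 1269 for MMC and 1108 for M, and 871 for GMC and 984 for GC, with a difference of 0.33 ± 0.20 (adjusted p = 0.2). THS_40802, nearest to AT4G01245, had 991, 1039 and 1645 in MMC and 637, 1414, 1645 and 1815 for M, while GMC had 609 to 771 and GC had 628 to 928, and was higher by 0.80 ± 0.24 (adjusted p = 0.0152).

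Genes of the stomatal pathway were taken from 9 lists with 61 genes, and THSs of the set lay in the body or the 3000 bp upstream of 11 of them. These genes had 38 such THSs, of which 9 were higher and 8 lower in MMC and M, where 16.6% of all THSs were higher and 16.7% lower. The lists of the MAP kinase cascade (5 genes), guard cell genes (4) and BPC factors (6) had none. The bHLH list had 3, at SPCH and FAMA, with 2 higher and 1 lower, all at the tag promoters described above.

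Among receptors, peptides and the protease, 2 of 11 genes had such THSs. BAK1, a co-receptor kinase, had 4. THS_48168, which spans its start, had 288, 334 and 573 in MMC and 190.1, 432, 437 and 464 for M, against 171, 182 and 216 for GMC and 229, 232 and 302 for GC. It was higher by 0.76 ± 0.22 (adjusted p = 0.0134), and M replicate 1 lay far below the other M libraries. THS_48169 at 780 bp upstream was also higher, by 0.58 (adjusted p = 0.0219), THS_48171 further upstream was lower, at -0.58 (adjusted p = 0.0269), and THS_48170 did not pass. SDD1, a subtilisin-like protease gene that limits stomatal number, had 1, THS_00782, which averaged 241 in MMC and 227 for M against 163 for GMC and 209 for GC (0.33 ± 0.19, adjusted p = 0.161).

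Of 17 genes of symmetric division and the cell cycle 3 had 18 THSs of the set, with 4 higher and 4 lower. FLP, a MYB gene that limits divisions of the guard mother cell, had 6, which were all its THSs. THS_03303 and THS_03302, at 1000 and 1370 bp upstream, were higher by 0.55 and 0.49 (adjusted p = 0.0204 and 0.0383), and THS_03301, at 1650 bp, was lower at -0.75 (adjusted p = 0.0402). All 6 were weak, with mean levels from 16.6 to 73.9.

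All 8 THSs of CYCD3;2 belonged to the set. THS_65198, 2613 bp upstream and in the body of SKIP2, had 203, 219 and 314 in MMC and 195, 211, 232 and 339 for M, while GMC had 135, 153 and 169.9 and GC had 158, 167 and 179. It was higher by 0.58 ± 0.18 (adjusted p = 0.0175), and THS_65199 at 2182 bp upstream was higher by 0.75 (adjusted p = 0.0106), both with no overlap of libraries. THS_65202, the one nearest to the start, differed by 0.28 (adjusted p = 0.205), and THS_65203 in the gene was lower at -0.76 (adjusted p = 0.0195). At CYCD3;1, which also has 3 THSs in peaks of both factors, 2 in coding sequence were lower, at -0.88 and -0.72 (adjusted p = 0.0224 and 0.0457). THS_48336, the most accessible of its 4, had a mean of 107.8 and differed by 0.40 ± 0.17 (adjusted p = 0.066).

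BRXL2, a polarity gene of the BREVIS RADIX family, had 5 THSs of the set with differences from -0.37 to 0.20 and a lowest adjusted p of 0.25 (THS_31123), so none was called. HDG2, an HD-ZIP IV factor that promotes stomatal differentiation, had 4, with THS_01096 higher by 0.73 (adjusted p = 0.0121) and THS_01090 in the gene lower at -0.94 (adjusted p = 0.0176). THS_01095, the strongest at HDG2, differed by 0.20 (adjusted p = 0.38). In brassinosteroid signalling, THS_49910 at the start of BRI1 averaged 170.3 in MMC and 151.2 for M against 136 for GMC and 133 for GC (0.23 ± 0.17, adjusted p = 0.305), and THS_49911 in its coding exon was lower at -0.89 (adjusted p = 0.0205). The single THS of the set at BZR1, THS_16055, had a mean of 9.87 and differed by -0.65 (adjusted p = 0.21). BRI1 and BZR1 each also have 4 THSs in peaks of both factors.

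**Figure D5:**
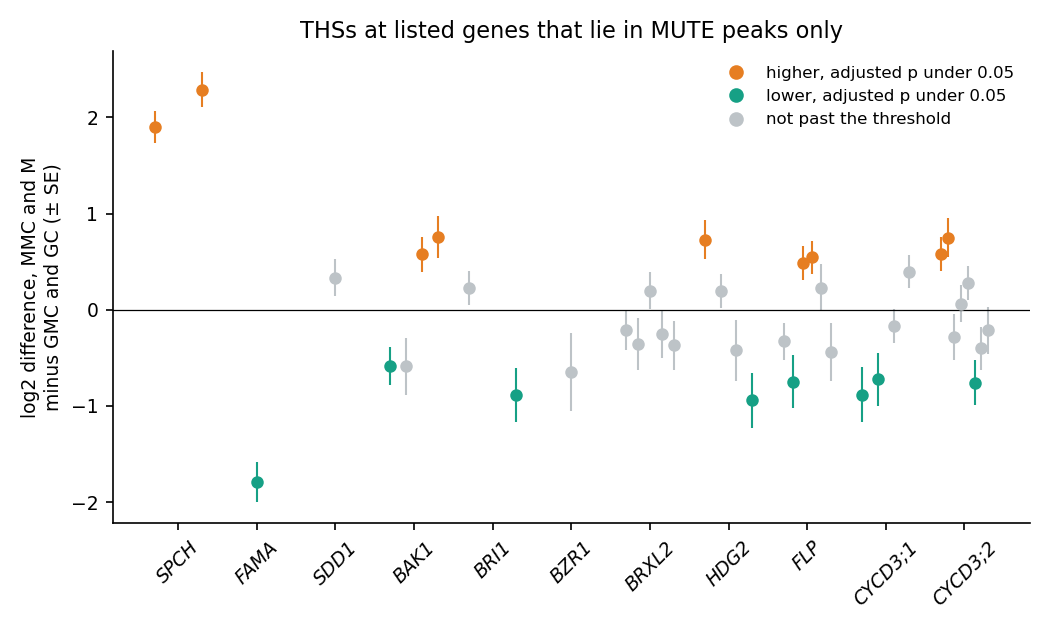
Log2 difference of MMC and M minus GMC and GC, with its standard error, for the 38 THSs at the 11 listed genes, ordered within a gene by position from upstream to downstream. Orange points passed as higher and green points as lower (limma, adjusted over all 65351 THSs). SPCH and FAMA, where the tag promoters lie, reached 2.29 and -1.79, and the others lay between -0.94 and 0.76.

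Other gene families were looked at after the nearest genes had been seen. Of 17 THSs nearest to 5 cytokinin response factor genes, 7 were higher and 0 lower (limma), with a median of 0.40. THS_42153, upstream of CRF1, averaged 224 in MMC and 193 for M against 111 for GMC and 119 for GC (0.81, adjusted p = 0.00567), and THS_61284, upstream of CRF3, averaged 409, 407, 206 and 251.2 in the same order (0.77, adjusted p = 0.0114). All 46 THSs nearest to genes of this name had 12 higher and 0 lower. Of 20 THSs nearest to expansin genes 6 were higher and 1 lower (23 and 9 of all 101), of 10 at XTH genes 3 and 0 (19 and 6 of all 98), and of 12 at WRKY genes 3 and 1 (39 and 38 of all 261). Of 19 at 8 tubulin genes 7 were higher and 7 lower (16 and 10 of all 47), and of 25 at microRNA genes 2 and 2 (38 and 87 of all 423). In the remaining families the counts, in the same order of higher and lower, were 1 and 3 of 13 at D-type cyclins (4 and 9 of all 34), 0 and 1 of 12 at NGATHA genes (0 and 1 of all 18), 0 and 2 of 12 at GATA factors (19 and 8 of all 78), 4 and 6 of 36 at cytochromes P450 (57 and 119 of all 633), and 2 and 4 of 26 at MYB genes (50 and 79 of all 492). These families were not tested.

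The MUTE peak with the most THSs of the set, chr1:29752833-29768884, held 19 of them among 21 THSs, near AT1G79100, AT1G79103, AT1G79120 and BRG2. It overlaps a SPCH peak in another place. Of these 19, 2 were higher and 0 lower in MMC and M, with differences from -0.59 to 0.60 and mean levels from 21.9 to 362.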

How the data were processed

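INTACT ATAC-seq was analysed in 16 libraries of 5 states. According to the paper, the authors used bowtie2 for mapping to TAIR10, left out centromeric reads, and joined MACS2 peaks with open regions from earlier work into THSs, on which cutcounts were taken. The deposited signal values are cutcounts on a THS divided by 1 size factor per library. Totals on THSs were estimated from the smallest step between values, and lay between 3412227 and 13596535 cutcounts. Whole counts were not recovered with certainty in every library. Depth limits weak THSs most. Another value column (1) matched no library and was not used. Replicates are called biological in the paper. Where they share plants, p-values measure only the spread between libraries.

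Values were put on the log2 scale with a pseudocount of 1 and limma 3.58.1 (R 4.3.3) was run with 5 state means, trend and robust variance, for all 65351 THSs. P-values were Benjamini-Hochberg adjusted, with a threshold of 0.05, and the fit was tested on simulated data. No filter was applied. ChIP-seq peaks came from the paper's lists. Coordinates were read as half-open and are printed counting from 1, and no THS (0) ran past a chromosome end of RefSeq TAIR10.1, which gave genes and sequences. Exact words were searched on both strands, and at most 30 bases are printed where a window meets non-coding exon. THSs were placed by midpoint, with 400 bp upstream counted first.

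Named THSs were, for each listed gene, the THS of the set with the most cutcounts in the body or 3000 bp upstream, the 6 largest differences in each direction for MMC and M against GMC and GC and the 4 for M against GMC without overlap of libraries, those called in other tests, the 5 highest levels, and the peak with the most such THSs. The set, its lists and tests were chosen with earlier results of these data known. Alternatives were pseudocounts, a filter at 20, scaling, a replicate block, a covariate, the variance model, the states in the fit, each library left out, and the overlap rules. Python 3.11.15, numpy 2.4.6, pandas 2.3.3 and matplotlib 3.10.9 were used.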

Additional observations from a re-analysis of the deposited data

Results flagged for a closer look

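Among the 31 THSs named by rule and the median of the set, Dixon's test in the 4 M libraries singled out 3 values, where chance gives about 1 in 20. M replicate 1 had 102 scaled cutcounts at THS_37579 near ROP1, where the other M libraries had 38.8 to 47.8. The same library had 190.1 at THS_48168 at BAK1, where the others had 432 to 464. M replicate 4 had 22.6 at THS_64845 near AT5G66080, where the others had 32.1 to 32.7. The groups of 3 libraries were not tested in this way.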

How the results depend on the processing

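The counts depended strongly on the setting. For MMC and M against GMC and GC, 891 of the 2914 THSs were called (21759 of all THSs). After cyclic loess 427 were called (10466), and with the share of the top 10% of THSs as a covariate 172 (4995). Leaving out 1 library gave 417 to 1332 (10570 to 31613). For M against GMC, 297 were called (6970 of all THSs), 116 after cyclic loess (2365) and 184 with only the states compared (5783). The count was 1 with the covariate (3), 1 without trend and robust variance (5), and 1 to 1070 with a library left out (4 to 25208). For M against the mean of the other 4 states leaving out a library gave 0 to 819 (1 to 16618 of all THSs). For the 5 state means it gave 3 to 778 (12 to 17272), and a pseudocount of 5 gave 6 (199). Leaving out a library gave 2 to 7 for MMC against Proto (3 to 698). It gave 2 throughout for M against MMC (3) and 1 throughout for GC against GMC (3 to 5). For GC against GMC, 0 were called after cyclic loess (3 of all THSs) and 2 with only the states compared (76). The causes were not tested.

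Replicate numbers did not pair the libraries, since the correlation of deviations between libraries of the same number ran from -0.22 to 0.40, with a median of 0.02 over 30 pairs. Some MMC and M libraries of different numbers were more strongly correlated. MMC replicate 3 was at 0.63 with M replicate 4 and -0.67 with M replicate 1. MMC replicate 2 was at 0.56 with M replicate 1 and -0.57 with M replicate 4. The limma fit took the libraries as independent, and this structure was not modelled. With the replicate block, 18 THSs of the set were called for M against GMC (402 of all THSs) and 115 for the 5 state means (3057). For MMC and M against GMC and GC the block gave 770 (18545).

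The share of the calls that were higher was 74.1% as deposited (49.7% over all THSs), 61.1% with equal totals (36.6%), 62.3% after cyclic loess (45.3%) and 61.6% with the covariate (36.1%).

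At least 1000 bp from a SPCH peak, the median level was 66.1 in Proto, 74.2 in MMC, 67.0 in GMC and 68.6 in GC, and with at least 50% inside a MUTE peak 63.2 in Proto and 64.7 in GMC. In the central 150 bp, CACGTG was in 14.2%, the GA repeat in 6.18%, the GATA words in 23.1% and CANNTG in 51.5%. With gene bodies counted first, 17.3% lay upstream of a start and 24.3% in non-coding exons.

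Of 38 calls of named THSs 27 held under every alternative, and all 38 kept their direction. For MMC and M against GMC and GC, THS_48168 at BAK1 and THS_40802 were not called after cyclic loess or with the covariate. THS_65198 upstream of CYCD3;2 was not called under these settings, nor without MMC replicate 3 or without GMC replicate 1. After cyclic loess 4 that had not been called changed sign, with THS_00782 at -0.11, THS_01095 at -0.034, THS_45126 at -0.41 and THS_49910 at -0.13, and with the covariate THS_31127 was at 0.14.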
